A study of Mus musculus with 6 samples.

Results

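The 43 genes described here encode collagen chains and were taken from the gene count table of the mouse main olfactory epithelium (the lining of the nose that carries the olfactory neurons) by their symbols, which read Col, a type number, the letter a and a chain number. Col17a1 was left out by the rule that chose them, and the table held 31319 genes in all. By the kind of structure they build, the members were divided into 8 fibrillar chains, 7 cartilage chains, 9 basement membrane chains, 9 beaded filament and network chains, 6 fibril-associated chains and 4 transmembrane and other chains. RNA was compared between 3 libraries labelled miR-200b/a KD (knockdown of the microRNAs miR-200b and miR-200a, called KD) and 3 labelled NC, an abbreviation that the labels do not spell out. Both groups were male mice on the C57BL/6 background, aged 5 months, and no treatment was named for either. The labels do not say how the knockdown was made, in which cells it acts or whether each library came from 1 animal. The p-values therefore reflect how much the 6 libraries vary, and that variation may be in part technical. Values of a group are given below in the order of replicates 1, 2 and 3, and a single library is named by group and replicate, as in KD-2.

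Collagens are secreted proteins in which chains wind around each other into a rod-like helix. Fibrillar collagens assemble into the cable-like fibrils of connective tissue and bone, and cartilage has fibrils of its own. Type IV collagen forms a sheet-like network in the basement membranes under epithelia, around blood vessels and around nerve bundles, where types XV and XVIII sit beside it. In the nose, an epithelium, its basement membrane, a vascular lamina propria and the bone and cartilage of the turbinates lie close together, so dissected olfactory mucosa can hold RNA from all of them.

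The libraries held between 15704791 and 17618540 counts. Reads assigned to the annotated gene Mir200b numbered 10, 0 and 28 in KD, against 76, 54 and 47 in NC. Mir200a had 54, 3 and 52 counts in KD against 200, 87 and 84 in NC. At both genes the highest KD count thus lay below the lowest NC count, and KD-2 had the fewest. These are unscaled reads of poly-A libraries and do not measure the mature microRNAs. After TMM scaling 18.6% of all tested genes lay wholly below NC in KD. KD-2 stood apart: its summed level of 12 mature olfactory neuron markers was 101 CPM (counts scaled to library size, here with edgeR's TMM factors), against 3780 and 4653 in the other KD libraries and 7923 to 12695 in NC. The TMM factor of KD-2 was 0.831, against 0.974 to 1.111 in the others. Many of the results that turn on KD-2, though not all, are also given without it. With library totals and no such factor the median log2 fold change of all tested genes moved from 0.01 to -0.14.

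No collagen passed the test: edgeR's quasi-likelihood test gave 0 of 41 tested members an adjusted p under 0.05, with 0% of the 18444 tested genes called and a smallest adjusted p over all genes of 0.276. Col4a3 and Col19a1 did not pass the filter on low counts and were not tested. At an unadjusted p under 0.05, 9 members (22%) were higher in KD, against 8.7% of all tested genes, and 2 (4.88%) were lower, against 9.25%. The 9 were Col4a1, Col4a2, Col15a1, Col18a1, Col6a1, Col6a5, Col6a6, Col12a1 and Col5a2, and the 2 were Col28a1 and Col14a1. Both counts moved with the setting, and the share of all genes under each setting stands in brackets. The count of 9 was 5 without KD-1 (4.94%), KD-3 (8.16%) or NC-2 (5.02%), and 4 without NC-3 (12.2%). It was 4 with the mature neuron marker level as a covariate (3.32%) and 3 with library totals and no scaling factors (3.58%). The marker level was itself lower in every KD library than in NC, so this covariate and the group are partly confounded. The count of 2 was 0 without KD-1 (5.29%), KD-2 (8.69%), NC-1 (4.44%) or NC-2 (4.11%). DESeq2 called 1 member (2.44%), Col4a1 with an adjusted p of 0.037, against 1.89% of the genes it tested. In 13 members (31.7%) all 3 KD values lay above all 3 NC values, against 15.3% of all genes, and in 5 (12.2%) all lay below, against 18.6%. With library totals and no scaling factors these counts were 7 against a background of 9.77% and the same 5 against 22.3%. The fitted log2 fold change was above 0 for 22 members (53.7%), near the 50.6% of all genes, and its median over the members was 0.08, against 0.01 over all genes. Over the family the values lay on both sides of 0, and the types are described apart.

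**Figure D1:**
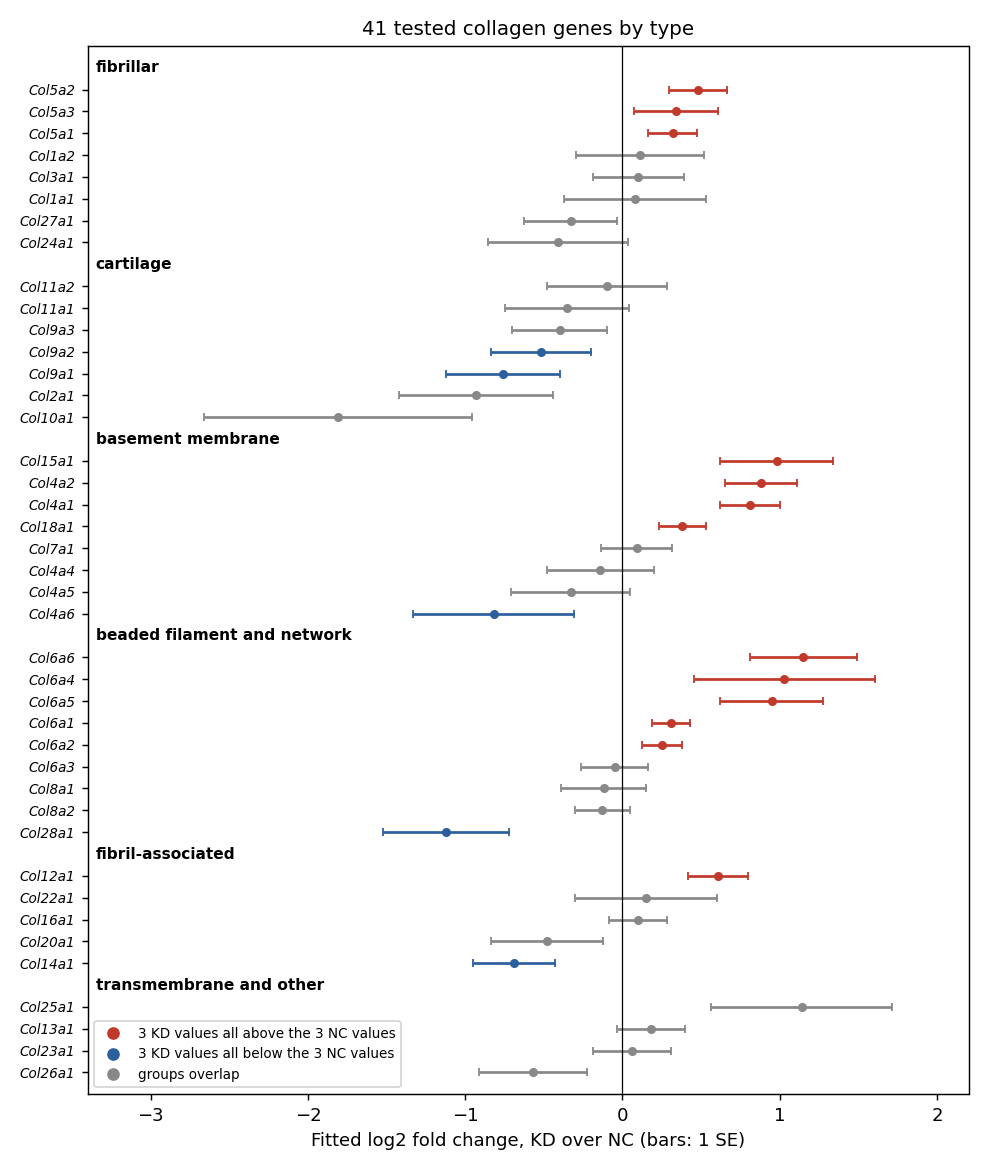
Fitted log2 fold change of KD over NC (horizontal axis, bars of 1 SE) for the 41 tested collagen genes, grouped by type. Red points mark genes whose 3 KD values all lie above the 3 NC values after TMM scaling, blue points those all below, and grey points overlap; the 7 cartilage chains all lie left of 0, while Col4a1, Col4a2 and Col15a1 lie at 0.81 to 0.98.

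Basement membrane collagens were the one type whose summed level separated the groups under all 4 scalings run. It was 480, 600 and 428 CPM in KD and 297, 328 and 336 in NC. The lowest KD library lay above the highest NC library with TMM, RLE and upper-quartile factors and also with library totals alone (448 to 499 against 298 to 365 CPM). The largest parts of the sum were Col4a1 (means of 173 CPM in KD and 99 in NC) and Col4a2 (140 and 76.3). Of the 8 tested members 5 had a fitted log2 fold change above 0, against 50.6% of all genes, with a median of 0.23.

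Col4a1 and Col4a2 encode the chains of the common type IV collagen molecule found in nearly all basement membranes. Col4a1 (chr8:11198423-11312826, minus strand, GRCm38) stood at 187, 200 and 133 CPM in KD and at 96.9, 100 and 99.9 in NC. The NC libraries were almost level, and the lowest KD library was still above all of them. Its log2 fold change was 0.81 with an SE of 0.189, a 1.75-fold difference, with an adjusted p of 0.28 by edgeR, and it was 0.72 without KD-2. Col4a2 (chr8:11312805-11449287, plus strand) stood at 127, 185 and 109 CPM in KD and 68, 79.8 and 81.2 in NC. KD-2 was the highest library for both genes, and the groups overlapped for neither. The log2 fold change of Col4a2 was 0.88 with an SE of 0.229 (adjusted p = 0.28, edgeR), and 0.65 without KD-2. When the mature neuron marker level of each library entered the fit as a covariate, the values were 0.60 for Col4a1 and 0.46 for Col4a2. That level itself separated KD from NC, so the fit cannot fully tell it apart from the group. The ratio of Col4a1 to Col4a2 counts ran from 1.08 to 1.48 in KD and from 1.23 to 1.42 in NC, so the ratios overlapped between the groups.

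Col4a1 and Col4a2 lie head to head: their annotated starts are 21 bases apart, and the annotated genes overlap by 22 bases, where unstranded reads could belong to either. Because both were higher in KD in like proportion, their start regions are shown. The windows run from 250 bases before to 50 bases after each RefSeq start (GRCm38.p6), and share 78 bases. Capitals mark GGGCGG and CCAAT, or CCGCCC and ATTGG where the motif lies on the other strand, and overlapping copies were counted.
Col4a1 window, chr8:11312777-11313076, minus strand: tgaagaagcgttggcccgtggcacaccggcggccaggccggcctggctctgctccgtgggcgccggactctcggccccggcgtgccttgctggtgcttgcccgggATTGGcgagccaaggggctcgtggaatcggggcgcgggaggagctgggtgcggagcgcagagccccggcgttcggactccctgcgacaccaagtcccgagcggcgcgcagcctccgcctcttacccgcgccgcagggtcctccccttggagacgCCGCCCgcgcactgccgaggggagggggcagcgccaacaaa
Col4a2 window, chr8:11312555-11312854, plus strand: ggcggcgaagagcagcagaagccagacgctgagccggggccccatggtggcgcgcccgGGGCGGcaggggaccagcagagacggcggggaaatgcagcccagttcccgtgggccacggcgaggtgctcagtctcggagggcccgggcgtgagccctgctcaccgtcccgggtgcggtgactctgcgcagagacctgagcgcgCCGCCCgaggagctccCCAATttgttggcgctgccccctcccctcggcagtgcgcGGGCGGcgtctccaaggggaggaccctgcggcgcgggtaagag
The Col4a1 window held 1 GGGCGG and 1 CCAAT, and the Col4a2 window held 3 and 1. GGGCGG, the core of a GC box, was present in 23 of the 37 RefSeq windows found for 34 collagen genes (62.2%), against 35.7% of all 32851 windows. CCAAT was present in 32.4% of collagen windows against 37.4% of all, and TATAAA in 10.8% against 13.6%. These letter matches describe the windows and say nothing about which factor binds them.

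The other type IV chains, which build the specialised networks of kidney, lung, eye, ear and smooth muscle basement membranes, were scarce. Col4a3 had 3 to 15 counts in a library and Col4a4 had 15 to 27. Col4a5 stood at 5.9, 5.21 and 6.01 CPM in KD and 9.93, 7.71 and 3.87 in NC, with overlap (log2 fold change -0.33). Col4a6 stood at 1.99, 0.613 and 2.15 CPM in KD and 3.52, 2.76 and 2.19 in NC (-0.82, SE 0.512). All KD values of Col4a6 were below NC, KD-3 by little, and no value without KD-2, its lowest library, is given. The X-linked pair Col4a5 and Col4a6, whose starts are 1309 bases apart, thus lay on the other side of 0 from Col4a1 and Col4a2, and that difference was not tested.

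Col15a1 encodes a collagen of the outer basement membrane zone of vessels and muscle. It stood at 57.2, 69.5 and 60.9 CPM in KD and 15.9, 38.2 and 41.1 in NC. The KD libraries were close together and all above NC, and NC-1 was the lowest by far. Its log2 fold change was 0.98 (SE 0.358; adjusted p = 0.28, edgeR), and 0.66 without NC-1. Col18a1, the source of the fragment endostatin, stood at 46.4, 52.5 and 59.4 CPM in KD and 40.7, 44.5 and 36.7 in NC. The groups were apart by a small margin (0.38, SE 0.149), and overlapped with library totals and no scaling factors. Col7a1, which forms the anchoring fibrils under stratified epithelia, overlapped at 53, 85.9 and 55.5 CPM in KD and 60.1, 53.3 and 68.7 in NC. Its log2 fold change was 0.09, and -0.14 without KD-2.

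Markers of endothelial cells, which make type IV collagen, differed between the same libraries. Of 9 endothelial markers 8 lay wholly above NC in KD, against 15.3% of all genes, with a median log2 fold change of 0.72 and a summed level of 283 to 423 CPM in KD against 140 to 242 in NC. None was at 0. Fibroblast markers summed to 1239 to 1416 CPM in KD against 988 to 1066 in NC. Of their 12 tested members 10 were above 0, against 50.6% of all genes. The 6 markers of horizontal basal cells, the reserve stem cells that sit on the basement membrane, summed to 760 to 1287 CPM in KD against 214 to 589 in NC. Mural and smooth muscle markers of vessel walls did not separate. Of these 8 markers 4 were above and 4 below 0 (median 0.09), 1 lay wholly above NC, and their summed levels overlapped. The count of Col4a1 per 100 counts of Pecam1, an endothelial adhesion molecule, was 174, 157 and 170 in KD and 345, 221 and 152 in NC. Per 100 counts of the fibroblast receptor gene Pdgfra it was 165, 192 and 168 in KD and 199, 152 and 183 in NC. Both ratios overlapped between the groups, and against Pecam1 NC-1 stood highest. Pecam1 (1.17) and Pdgfra (0.81) were among the markers that were higher in KD. Cldn5 (-0.07), Lum (0.04) and Dcn (-0.54) of the same lists lay near or below 0. Ratios to these were not taken, so the overlap holds for the 2 chosen markers only. Per 100 counts of Pecam1, Col15a1 also overlapped, at 53.3, 54.6 and 77.4 in KD and 56.4, 84.2 and 62.5 in NC. In bulk tissue more cells of a type and more RNA per cell cannot be told apart, and the part of these markers in the collagen values was not tested.

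**Figure D2:**
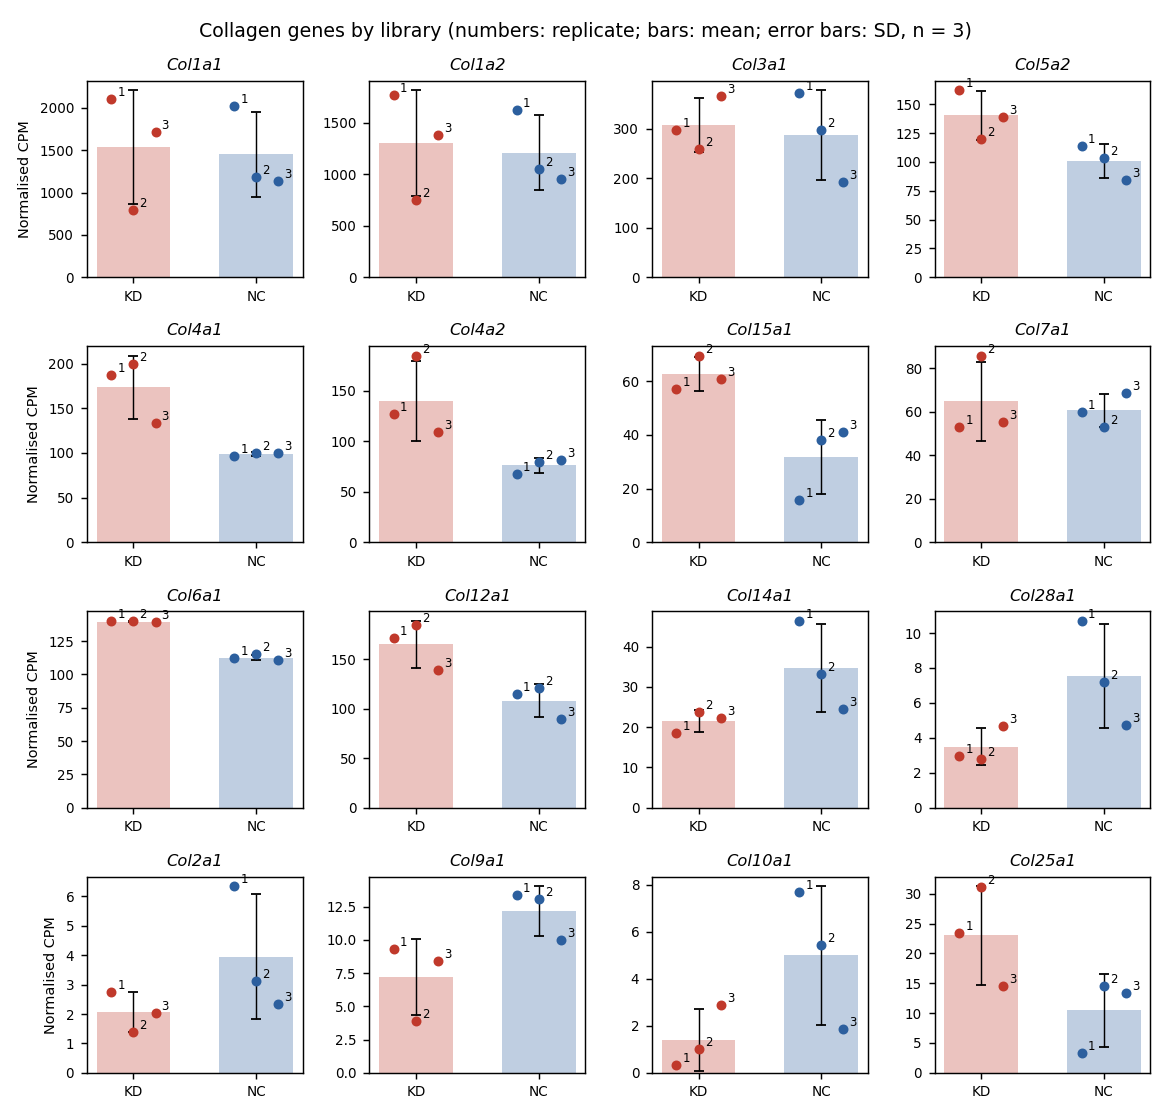
TMM-scaled CPM (vertical axes, from 0) of 16 collagen genes in the 3 KD and 3 NC libraries, with points labelled by replicate number, bars for the mean and error bars for the SD (n = 3). The NC values of Col4a1 lie between 96.9 and 100 and its KD values between 133 and 200, while the Col1a1 values of both groups spread over more than their means differ.

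Fibrillar collagens made up most of the collagen RNA. They held 76.8%, 59.4% and 74.4% of collagen counts in KD and 78.7%, 71.2% and 71% in NC, with KD-2 the lowest (exact Clopper-Pearson 95% interval 59% to 59.9%, which covers counting error only). All collagens together took 0.568%, 0.288% and 0.524% of counts in KD and 0.542%, 0.432% and 0.368% in NC, so the groups overlapped. Col1a1 and Col1a2 encode the chains of type I collagen, the main protein of bone, tendon and dermis, and per kilobase of exon Col1a1 was the most abundant collagen at 227 CPM per kb over the 6 libraries. Col1a2 followed at 101 CPM per kb, Col3a1 at 30.3, Col6a1 at 28.8, Col4a1 at 18.2 and Col4a2 at 16.4. The length is that of all annotated exons of a gene together, 6563 bases for Col1a1 and 12426 for Col1a2. These levels therefore depend on the annotation, and the counts of the 2 type I genes differ by less.

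Col1a1 (chr11:94936224-94953042) stood at 2102, 790 and 1711 CPM in KD and 2029, 1189 and 1138 in NC. KD-2 held the lowest value and KD-1 the highest, so the SD within KD (674 CPM) was wider than the difference between the means of 1534 and 1452 CPM. Its log2 fold change was 0.08 with an SE of 0.454, and 0.42 without KD-2, and it turned to -0.02 with library totals and no factors. Col1a2 (chr6:4504814-4541544) followed the same order of libraries, at 1769, 750 and 1380 CPM in KD and 1626, 1047 and 951 in NC (0.11, SE 0.406). The ratio of Col1a1 to Col1a2 counts stayed between 1.05 and 1.25 in all 6 libraries. Col3a1, the type III chain of extensible tissues, stood at 297, 259 and 366 CPM in KD and 371, 298 and 192 in NC, with overlap (0.10, SE 0.288). The 12 bone cell markers summed to 964, 786 and 811 CPM in KD and 595, 646 and 560 in NC, so this sum separated while the type I chains did not. Spp1 was its largest part, with means of 340 CPM in KD and 214 in NC. Of the 12 markers 7 had a value above 0. Gene by gene 3 lay wholly above NC, against 15.3% of all genes, and 9 overlapped. Bglap (-0.58), Bglap2 (-0.27), Phex (-0.21) and Mepe (-1.02) lay below 0, and Sp7 stood at -0.00. The part of these markers in the type I values was not tested.

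Type V collagen co-assembles with type I and regulates fibril diameter. Col5a2 stood at 162, 120 and 139 CPM in KD and 114, 103 and 84.6 in NC. All KD values lay above NC (0.48, SE 0.186; adjusted p = 0.28, edgeR), but the groups overlapped under upper-quartile factors and with library totals alone. Col5a1 stood at 102, 81.4 and 79.7 CPM in KD and 77.3, 65.6 and 67.4 in NC (0.32, SE 0.156). Col5a3, a minor chain of the type, stood at 8.99, 8.89 and 9.15 CPM in KD and 4.93, 8.28 and 8.18 in NC (0.34, SE 0.267). Both lay above NC in all KD libraries after TMM scaling, both overlapped with library totals alone, and Col5a1 also with upper-quartile factors. Without NC-1, its lowest library, Col5a3 had 0.13, and without KD-1, its highest, Col5a1 had 0.20. The developmental fibrillar chains Col24a1 (-0.41) and Col27a1 (-0.33) overlapped. The 3 type V genes thus separated after TMM scaling, where 15.3% of all tested genes lay wholly above NC. The type I and III genes that they accompany in fibrils overlapped, and the difference between these types was not tested.

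The type I chains varied more between libraries than the other collagens together, as the plot of summed levels shows. They summed to 3871, 1539 and 3092 CPM in KD and 3655, 2236 and 2089 in NC. The other 41 genes summed to 1956, 1924 and 1912 CPM in KD and 1754, 1655 and 1429 in NC. KD-2 held 44.4% of its collagen counts in the type I chains, against 66.4% and 61.8% in the other KD libraries and 57.5% to 67.6% in NC. The sums without type I did not overlap after TMM scaling, but did so with library totals alone, at 1905, 1599 and 2003 CPM in KD and 1760, 1839 and 1496 in NC.

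**Figure D3:**
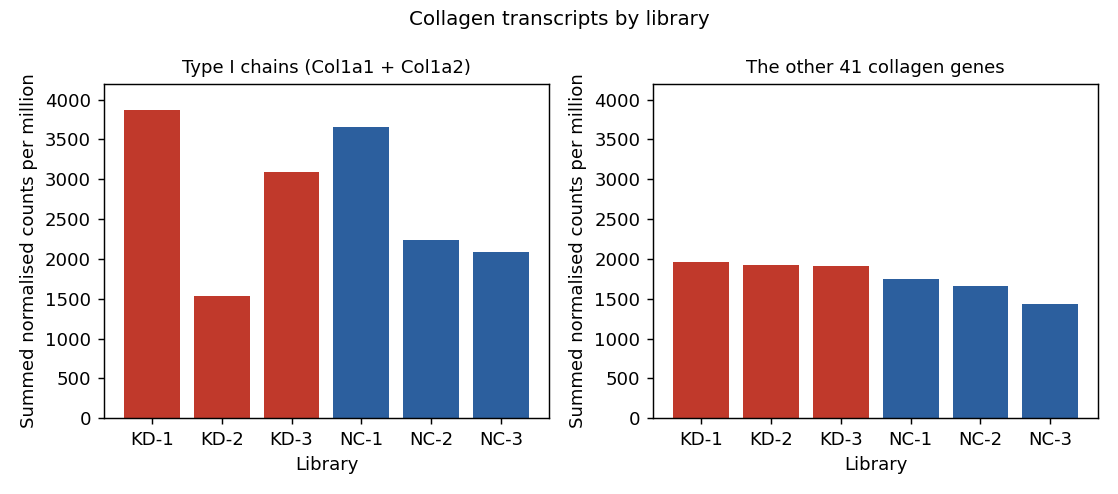
Summed TMM-scaled CPM (vertical axes, from 0) of the 2 type I collagen chains (left) and of the other 41 collagen genes (right) in each of 6 libraries, KD in red and NC in blue. Type I runs from 1539 to 3871 CPM, with KD-2 lowest, while the other genes run from 1429 to 1956.

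Each of the 7 cartilage collagens had a negative fitted log2 fold change (median -0.52). None of the 7 had an unadjusted p under 0.05 by edgeR, and 2 of the 7 lay wholly below NC, against 18.6% of all genes. Their summed level overlapped between the groups, at 136, 60.6 and 128 CPM in KD and 172, 126 and 114 in NC. KD-2 was the lowest library, and the median was -0.29 without it, -0.17 without KD-2 and NC-1 and -0.11 with the neuron marker covariate. As a share of collagen counts, they were 2.34%, 1.75% and 2.56% in KD and 3.17%, 3.23% and 3.23% in NC, and here the groups did not overlap. This share depends on the levels of the other collagens too, and its difference between the groups was not tested.

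Col2a1, the main fibrillar chain of cartilage, was scarce, at 2.74, 1.38 and 2.04 CPM in KD and 6.35, 3.12 and 2.35 in NC (-0.93, SE 0.489). KD-1 lay above NC-3, so the groups overlapped, and the value was -0.41 without NC-1 and -0.17 without both NC-1 and KD-2. Per 100 counts of Col1a1, Col2a1 had 0.131, 0.175 and 0.119 counts in KD and 0.313, 0.262 and 0.207 in NC, with every KD library below NC. Col9a1, a chain that decorates type II fibrils, stood at 9.28, 3.91 and 8.43 CPM in KD and 13.4, 13.1 and 10 in NC. All KD values were below NC under each scaling run (-0.76, SE 0.361), and Col9a2 (-0.52) had the same order. The value of Col9a1 was -0.44 without KD-2, -0.36 without KD-2 and NC-1 and -0.17 with the neuron marker covariate. The third chain, Col9a3, overlapped (-0.40).

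Col10a1, made by the hypertrophic chondrocytes of cartilage that turns to bone, had the lowest fold change of all tested collagens (-1.81, SE 0.851). It stood at 0.35, 0.996 and 2.87 CPM in KD and 7.71, 5.42 and 1.85 in NC, which overlap because KD-3 lay above NC-3. With 1 library left out the value ran from -2.89 (without KD-3) to -1.34 (without KD-1). Col11a1 and Col11a2 encode chains of type XI collagen, which seeds type II fibrils, and both overlapped. Col11a2, the most abundant cartilage chain per length, stood at 67.4, 26.1 and 63.4 CPM in KD and 71.4, 46 and 51.5 in NC (-0.10, SE 0.382), and its value turned to 0.24 without KD-2. Col11a1 had -0.35. Of the 12 chondrocyte markers 8 were tested, with 4 above and 4 below 0 (median -0.05), and 4 were at or near 0: Matn1, Matn3, Ucma and Snorc had at most 3 counts in any library. The list summed to 95 to 110 CPM in KD and 96.4 to 105 in NC. Most of that sum came from Sox9 (means of 42.4 CPM in KD and 40.8 in NC) and Chad (32.2 and 24.7). The cartilage proteoglycan gene Acan was present at 19 to 59 counts a library and overlapped (0.20), as did Sox9, a factor that other cells also express, at 537 to 800 counts (0.05). Cnmd, with 8 to 198 counts, was the one member wholly lower in KD (-1.75). Hapln1 (-1.48), Matn4 (-0.75) and Epyc (-0.16) were also below 0, Comp (0.77) and Chad (0.38) above it, all with overlap. The part of these markers in the cartilage collagen values was not tested.

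Beaded filament and network collagens had a median of 0.25 over 9 genes, with 5 above 0, against 50.6% of all genes. Type VI collagen forms beaded microfilaments that link cells to the matrix. Col6a1 stood at 140, 140 and 139 CPM in KD and 112, 115 and 111 in NC. Both groups were nearly level within themselves and stood 1.24-fold apart (0.31, SE 0.121; adjusted p = 0.28, edgeR), but with library totals alone they overlapped. Col6a2 (0.25) lay above NC by less, and overlapped under RLE and upper-quartile factors and with library totals. Col6a3, the largest common chain, overlapped (-0.05).

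The 3 adjacent genes of the alternative type VI chains lie within one stretch of chromosome 9, 28.8 and 27.9 kb apart, and all were low. Col6a6 stood at 4.38, 5.9 and 4.91 CPM in KD and 1.67, 3.12 and 2.02 in NC (1.15, SE 0.342). Col6a5 stood at 6.25, 4.29 and 3.42 CPM in KD and 2.59, 2.15 and 2.47 in NC (0.95, SE 0.328). Col6a4 (1.03, SE 0.578) stood at 3.91, 3.6 and 3.03 CPM in KD and at 0.493, 2.35 and 2.3 in NC. All 3 lay above NC in every KD library under each of the 4 scalings run, on 8 to 107 counts a library. Of all tested genes, 15.3% lay wholly above NC with TMM and 9.77% with library totals alone. Col28a1, found around Schwann cells and at nodes of peripheral nerves, went the other way, at 2.98, 2.76 and 4.69 CPM in KD and 10.7, 7.2 and 4.76 in NC (-1.12, SE 0.4). KD-3 and NC-3 almost touched. Glia markers were also lower, summing to 109 to 134 CPM in KD and 144 to 200 in NC, with 7 of 8 tested members below 0, and their part in the Col28a1 value was not tested. The short network chains Col8a1 (-0.12) and Col8a2 (-0.13) of vessel walls and Descemet's membrane overlapped.

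Fibril-associated collagens, which sit on the surface of fibrils, split. Col12a1, of dense connective tissue and periosteum, stood at 172, 185 and 139 CPM in KD and 115, 121 and 89.2 in NC. All KD values were above NC under each scaling run (0.61, SE 0.191; adjusted p = 0.28, edgeR). Its relative Col14a1 stood at 18.5, 23.7 and 22.3 CPM in KD and 46.4, 33.1 and 24.5 in NC. All KD values were below NC (-0.69, SE 0.258; adjusted p = 0.28, edgeR), and NC-1 was the highest, with -0.42 without it. Col16a1, the most abundant of this type per length, stood at 77.2, 61.4 and 86.5 CPM in KD and 74.9, 75.1 and 59.4 in NC, with overlap (0.10, SE 0.183). Col20a1 stood at 11.4, 5.29 and 13.6 CPM in KD and 13.3, 15.1 and 14 in NC (-0.48, SE 0.355), where KD-3 alone reached the NC range. Without KD-2, its lowest library, the value was -0.15, and with the neuron marker covariate it was 0.10. Col22a1, of tissue junctions, overlapped (0.15). Col19a1 had 1 count in KD-3 and 0 in the other libraries, where a count of 0 allows up to 3 counts.

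Transmembrane and other collagens all overlapped. Col25a1, a neuronal membrane collagen that takes part in motor innervation, stood at 23.4, 31.1 and 14.6 CPM in KD and 3.33, 14.6 and 13.4 in NC, with KD-3 at the level of NC-2 (1.14, SE 0.575). Without NC-1, its lowest library, the value was 0.71. Col23a1, a membrane collagen and the most abundant of this type per length, stood at 25.5, 48.1 and 32.6 CPM in KD and 36.2, 34.3 and 31.2 in NC (0.06, SE 0.246). KD-2 was its highest library and KD-1 its lowest. Col26a1 stood at 2.16, 2.83 and 3.91 CPM in KD and 3.64, 4.14 and 5.49 in NC (-0.57, SE 0.343), with KD-3 above NC-1. Col13a1, a membrane collagen of cell adhesions, stood at 14, 11.1 and 14.8 CPM in KD and 9.44, 12.7 and 13.1 in NC (0.18, SE 0.218), and had 0.04 without NC-1.

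Genes that fold, process and sense collagens are listed here by role, and none had an adjusted p under 0.05 by edgeR. Of all tested genes 50.6% had a value above 0, and 9.25% were lower at an unadjusted p under 0.05 by edgeR. Among 21 genes of synthesis and folding, 15 had a log2 fold change above 0 (median 0.38), and 4 were higher at an unadjusted p under 0.05 by edgeR, against 8.7% of all genes. Those with the smallest p were Tmem38b (0.79), an endoplasmic reticulum cation channel subunit, P3h2 (1.01), a prolyl hydroxylase that acts on type IV collagen, and Fkbp10 (0.49), a collagen chaperone. Among 18 tested genes of processing and crosslinking, 16 were above 0 (median 0.35) and 5 were higher at that p. Tgm2, a crosslinking transglutaminase, stood at 313, 489 and 320 CPM in KD and 52.2, 152 and 186 in NC (1.52, SE 0.486). Pcolce (0.51), which speeds removal of the procollagen tail, and Bmp1 (0.39), the enzyme that removes it, also lay wholly above NC. Their relative Pcolce2 had the largest fitted difference of the list and went the other way, at 53, 0.536 and 74.7 CPM in KD and 212, 130 and 113 in NC (-1.83, SE 1.26). All its KD values were below NC, KD-2 by far, and no value of Pcolce2 without KD-2 is given. Among 9 tested receptors 8 were above 0 (median 0.54), and Itga1 (0.67), Itga2 (0.93) and Itgb1 (0.67), subunits of the collagen-binding integrins, were higher at that p. Among 12 partners in the basement membrane (laminins, nidogens and others) 8 were above 0 (median 0.26). At that p none of the partners was higher and 1 was lower. This was Pxdn, the peroxidase that crosslinks type IV collagen. It stood at 38.1, 40.1 and 41 CPM in KD and 66.2, 67.4 and 50.3 in NC (-0.63, SE 0.154, adjusted p = 0.28, edgeR). Of the partners with the next smallest p, Lamc1 stood at 0.41 and Hspg2 at 0.62. All KD values of Pxdn were below NC, while those of Col4a1 and Col4a2 were above.

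**Figure D4:**
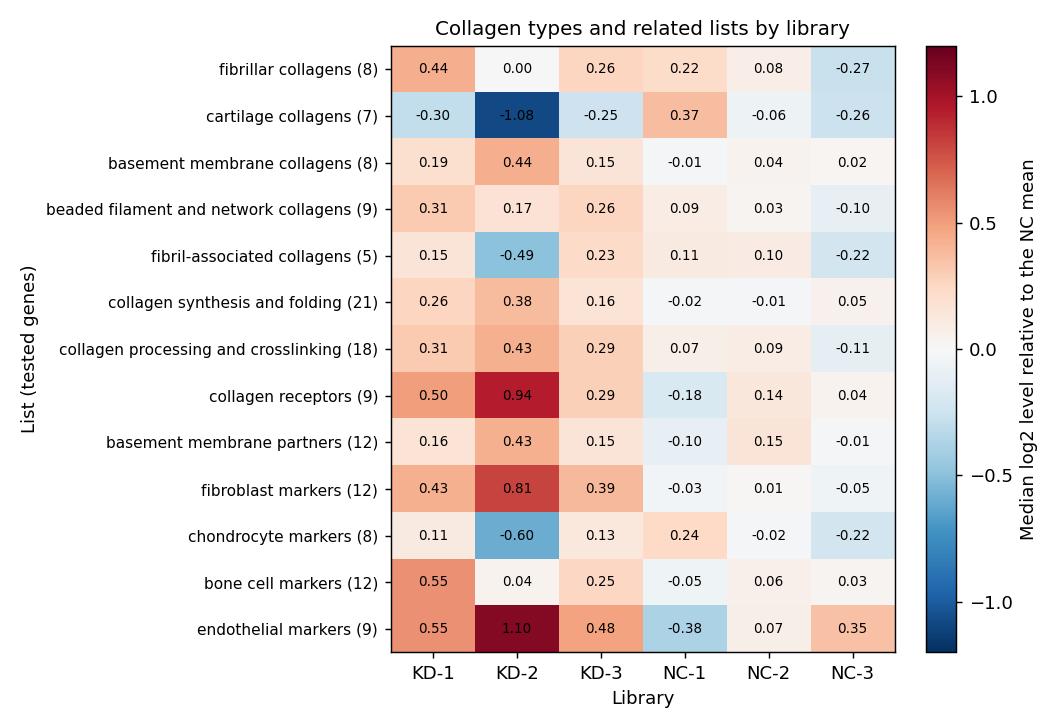
Median log2 level of the tested genes of 5 collagen types, 4 collagen pathway lists and 4 cell type marker lists (rows, with the number of tested genes) in each of 6 libraries (columns), relative to the NC mean with a pseudocount of 0.5 CPM. Basement membrane collagens lie at 0.15 to 0.44 in KD and -0.01 to 0.04 in NC, endothelial markers at 0.48 to 1.10 in KD and -0.38 to 0.35 in NC, and cartilage collagens fall to -1.08 in KD-2.

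MicroRNAs pair through their seed, bases 2 to 8, with sites in 3′ untranslated regions. The mature forms of the 2 microRNAs named in the knockdown (RefSeq, GRCm38.p6) are shown with the seed in capitals, since it sets which letters were searched in the collagen transcripts.
mmu-miR-200b-3p, chr4:156055685-156055706, minus strand: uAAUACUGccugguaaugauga
mmu-miR-200a-3p, chr4:156054911-156054932, minus strand: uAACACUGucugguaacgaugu
The seeds differ in 1 letter, so their matches were searched apart, as CAGTATT for miR-200b and CAGTGTT for miR-200a. The search covered the transcript strand of the longest annotated 3′ untranslated region of each gene. The microRNAs miR-200c and miR-429 have the same seed as miR-200b, and miR-141 has that of miR-200a. A match is therefore named here by its seed and is not particular to the microRNAs of the knockdown. Of the 43 collagens 12 (27.9%) held a match to either seed, against 29% of 15786 tested genes with such a region. Matches to miR-200b were in 7 (16.3% against 14.9%) and to miR-200a in 5 (11.6% against 19.7%). The share with any match was thus near that of all genes. The 11 tested collagens with a match had a median log2 fold change of -0.14, with 4 above 0, and the 30 tested without one had 0.10, with 18 above 0. Over all genes the medians were -0.03 with and 0.04 without a match.

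Of the 12 collagens with a match, the sites of 5 are shown, with the seed match in capitals (GRCm38): those of the 4 whose groups did not overlap after TMM scaling, and that of the abundant Col1a2.
Col4a1, miR-200a, chr8:11199363-11199391, minus strand: gtccaacccactgtcCAGTGTTtccacat
Col5a1, miR-200b, chr2:28037305-28037333, plus strand: ggagtgggggcgggaCAGTATTtgaagat
Col1a2, miR-200a, chr6:4540872-4540900, plus strand: tccccaaaatgtttgCAGTGTTatttttg
Col4a6, miR-200b, chrX:141166106-141166134, minus strand: gaaaggctgaaaggcCAGTATTtggtcct
Col9a2, miR-200b, chr4:121055213-121055241, plus strand: gcctgtctcccatccCAGTATTtaaacat
Col4a1 and Col5a1 lay above NC in KD after TMM scaling, Col1a2 overlapped, and Col4a6 and Col9a2 lay below. Of the others with a match, Col25a1 had a value above 0, Col11a1, Col26a1, Col4a4, Col4a5 and Col8a1 had values below 0, all 6 overlapped, and Col4a3 was not tested. Col25a1 held 4 matches to miR-200a, the most of any collagen. Col4a2, Col15a1, Col12a1 and the type VI chains Col6a1, Col6a2, Col6a4, Col6a5 and Col6a6 held no match to either seed. A match is a description of the letters, and no match says only that these letters are not in this region.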

How the data were processed

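Poly-A RNA of 6 libraries was sequenced with paired reads, per the labels' protocols. The submitters' processing notes name HISAT2 2.1.0, Bowtie2 2.2.3, TopHat2, HTSeq 0.6.0, DESeq and DESeq2 with GRCm38, without saying which step used each, and no source used here names the strand setting. The deposited table holds raw read counts per gene for the 6 libraries. It also holds the authors' mean normalised count (a signal value), log2 fold change and p-value per gene, which were checked (the mean matched counts divided by size factors within 0.0142%, and 78 genes had no deposited p-value) and not used further. From the counts, edgeR 4.0.16 (R 4.3.3; TMM, filterByExpr, quasi-likelihood test, two-sided) was fitted to 18444 genes in all 6 libraries, with Benjamini-Hochberg adjustment over all of them and a threshold of 0.05. CPM were scaled by TMM, and CPM per kb divided by GENCODE exon length. The SE of a log2 fold change was its size divided by the square root of F. The biological coefficient of variation was 40.9%. Libraries held 15704791 to 17618540 counts. With 3 libraries against 3, an exact permutation test of a single gene cannot go below p = 0.1, so none is given.

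Alternatives were DESeq2 1.42.0, limma-voom 3.58.1, other scalings and filters, a covariate, a replicate block and libraries left out. The fit was also run on simulated counts with 200 changed genes. There the changes were larger than those of the collagens and the libraries varied less than the real ones. That run therefore does not show which differences the fit could find in these data. Of the gene IDs, 31251 matched the reference annotation. The members, types, marker lists and pathway lists were chosen with earlier results of these data known. Genes with values in every library are the common chains of each type, the highest member by level per length in each type and up to 3 members of each type with the smallest p. From each pathway list up to 3 genes with the smallest p are named, and Col4a5, Col4a6, Col6a4 and Pcolce2 were added after their values were seen.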

Additional observations from a re-analysis of the deposited data

How the results depend on the processing

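The count of collagens with an adjusted p under 0.05 stayed at 0 under every alternative run except DESeq2, which gave 1 (Col4a1, log2 fold change 0.78). The count higher at an unadjusted p under 0.05 (9) was 4 with the neuron marker covariate, against 3.32% of all genes. It was 3, against 3.58%, with library totals without factors (an alternative chosen after seeing the data). With 1 library left out it ran from 4 to 7 (5 without KD-1, KD-3 or NC-2, and 4 without NC-3), against 4.62% to 12.2%. The count lower (2) was 1 by limma-voom, 1 with KD-2 and NC-1 both dropped and 0 with the covariate. The shares of all genes there were 11%, 7.14% and 1.71%. With 1 library left out this count was 0 to 3 (0 without KD-1, KD-2, NC-1 or NC-2), against 4.11% to 10.7%. Libraries with the same replicate number share only that number: their deviations from the group means correlated at 0.31, 0.10 and -0.26 for numbers 1, 2 and 3. Not every library correlated best with its own number. With the replicate block 0 members had an adjusted p under 0.05. At an unadjusted p under 0.05, 6 were higher and 0 lower in that fit, against 7.22% and 6.78% of all genes.

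Without both KD-2 and NC-1 the median log2 fold change was 0.24 over all collagens, 0.47 for fibrillar chains, -0.17 for cartilage chains, 0.21 for synthesis and folding and 0.23 for receptors. With the covariate it was 0.31, 0.38 for fibrillar chains, -0.11 for cartilage chains, 0.07 for synthesis and folding and 0.26 for receptors. With library totals without factors it was -0.08 over all collagens, 0.07 for basement membrane chains, 0.11 for beaded filament and network chains, 0.22 for synthesis and folding, 0.18 for processing and 0.10 for basement membrane partners, and without a filter on low counts it was 0.10 for basement membrane chains. With 1 library left out the medians ran from -0.26 to 0.25 for fibril-associated chains (lowest without KD-1), from -0.05 to 0.38 for fibrillar chains (0.38 without KD-2, 0.35 without NC-1) and from 0.19 to 0.40 for synthesis and folding (0.22 without KD-2, 0.25 without NC-1, 0.19 without NC-2).

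Single genes near 0 changed sign. With 1 library left out Col1a1 ran from -0.21 to 0.42, Col1a2 from -0.18 to 0.41, Col3a1 from -0.12 to 0.33, Col7a1 from -0.14 to 0.21, Col11a2 from -0.32 to 0.24, Col16a1 from -0.01 to 0.25 and Col23a1 from -0.20 to 0.24. With library totals without factors the values were -0.02 for Col1a1, -0.00 for Col1a2, -0.03 for Col3a1, -0.08 for Col7a1, -0.03 for Col16a1 and -0.11 for Col23a1. By limma-voom Col1a1 was -0.01 and Col23a1 -0.00. Without both KD-2 and NC-1 Col7a1 was -0.15, Col11a2 0.45 and Col23a1 -0.15. With the covariate Col7a1 was -0.32, Col11a2 0.56, Col20a1 0.10 and Col23a1 -0.36. The cause of these changes was not tested.

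Col4a1 kept a log2 fold change of 0.60 to 0.97 and Col4a2 of 0.46 to 1.04 over all alternatives run, with adjusted p from 0.037 to 0.90 and from 0.068 to 0.90 by edgeR, DESeq2 and limma. The highest adjusted p of both came with the covariate, which itself separated the groups. Depth limits the scarce genes, such as Col4a4 with 15 to 27 counts a library and Col2a1 with 18 to 103.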
